A study of Mus musculus with 2 samples.

Results

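The 39 genes described here encode subunits of the proteasome. They were taken as every protein-coding gene of GENCODE M21 whose symbol is Psma, Psmb, Psmc or Psmd followed by a number, out of 53273 genes that could be read from the deposited tables. By role they fall into 14 constitutive genes of the 20S core, 3 immunoproteasome genes, 9 genes of the base and 8 of the lid of the 19S cap, 3 chaperones of base assembly and 2 tissue-specific genes.

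The proteasome is the chamber in which cells degrade proteins tagged with ubiquitin. Its 20S core is a stack of rings: the Psma genes encode the outer alpha rings and the Psmb genes the inner beta rings, where Psmb5, Psmb6 and Psmb7 carry the cutting sites. The 19S cap sits on the core, with a base that binds ubiquitin and, through its ATPases (the Psmc genes), unfolds a substrate, and a lid (many of the Psmd genes) that strips off its ubiquitin. In blood cells, and in other cells exposed to interferon gamma, Psmb8, Psmb9 and Psmb10 replace Psmb5, Psmb6 and Psmb7 and so form the immunoproteasome, which shapes the peptides loaded on MHC class I.

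The counts came from single bone marrow cells of 8-week-old C57BL/6 mice with the Fucci reporter, a pair of fluorescent proteins that report the cell cycle. The green reporter mAG carries part of geminin and is seen in S, G2 and M phase, and the orange reporter mKO2 carries part of Cdt1 and is seen in G0 and G1. The gates were mAG+ and mKO2neg in 1 library and mKO2low and mKO2high in the other, with 48 cells in each gate. The labels name no animals, and each gate is 1 sample with no replicate. Differences were therefore not tested and are given with 95% intervals that cover counting error only.

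Gates held 2791584 counts in mAG+ against 1608630 in mKO2neg, and 1703263 in mKO2low against 934036 in mKO2high, and the median cell held 45177, 24633, 26852 and 14511 counts in the same order. A gene with no count could have held up to 1.07 CPM (counts scaled to the gate's total) in mAG+ against 1.86 in mKO2neg, and 1.76 in mKO2low against 3.21 in mKO2high, taking 3 counts over the gate as the floor. All 8 markers of blood stem and progenitor cells were counted in each gate, with summed levels of 1254 CPM in mAG+ against 1401 in mKO2neg, and 1529 in mKO2low against 1719 in mKO2high. These markers did not share a direction. Ly6a had 127 CPM in mAG+ against 278 in mKO2neg, and 368 in mKO2low against 400 in mKO2high. Hlf had 322 CPM in mAG+ against 292 in mKO2neg, and 322 in mKO2low against 198 in mKO2high. Levels are counts at 3′ ends scaled to the gate and are not per length, so each gene is compared between gates and never with another gene.

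The deposited gene labels stand 1 gene away from their counts, and each gene was read from the row labelled with the gene just before it in the annotation. Read so, the 39 genes held 57669 counts, against 2465 under their own labels. The preceding row held more in 38 of them, and 17 had no count under their own label. Beta-actin (Actb) went the same way, with 25599 counts in the preceding row and 136 under its label, and so did beta-2 microglobulin (B2m) with 56396 and 0. The 79 ribosomal protein genes took up 18.4% of all counts when read from preceding rows and 0.152% under their labels. Psmb1 is the 1 gene whose preceding neighbour is another when annotated genes that are absent from the tables are included.

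Proteasome genes held nearly the same share of the counts in all 4 gates. Their summed level was 8353 CPM in mAG+ against 8382 in mKO2neg, and 7914 in mKO2low against 7910 in mKO2high, which is 0.835%, 0.838%, 0.791% and 0.791% of the counts in that order. Between the highest and the lowest gate, the median gene of the family differed 1.39-fold among the 33 members with at least 500 counts over the 4 gates, where the median over all 2663 genes with that many counts was 1.73-fold. Of these 33 members 63.6% stayed within 1.5-fold over the gates, and 30.2% of all such genes did.

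**Figure D1:**
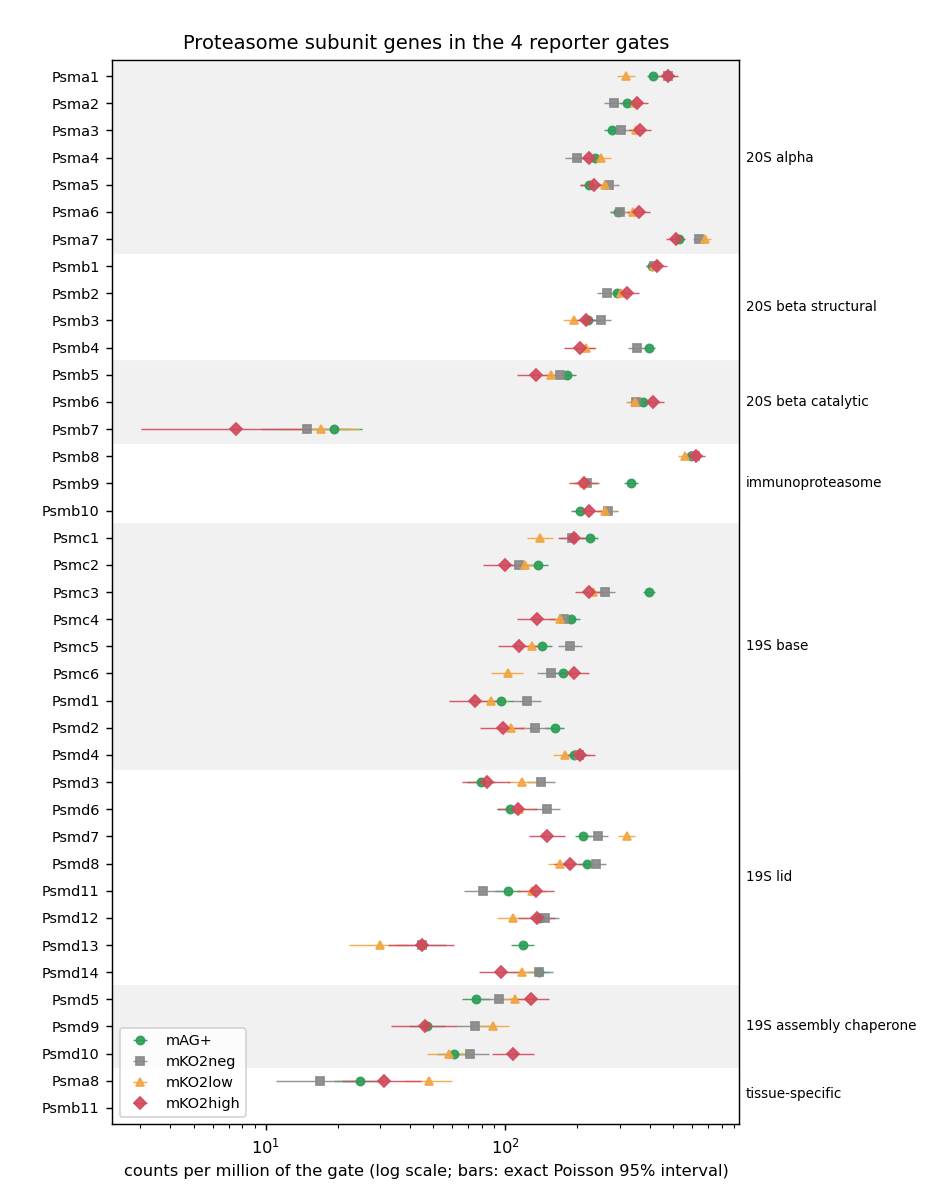
Level of each proteasome gene in CPM on a log axis, with exact Poisson 95% intervals, in mAG+ (circles), mKO2neg (squares), mKO2low (triangles) and mKO2high (diamonds), grouped by role. For most genes the 4 symbols lie close together; Psmd13 in mAG+ at 118 CPM stands apart, and Psmb11, with no count in any gate, has no symbol.

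Single cells showed the same level with a broad spread. Among cells with at least 5000 counts, the median share of a cell's counts in proteasome genes was 0.806% in 45 mAG+ cells (quartiles 0.709% and 0.895%), 0.786% in 43 mKO2neg cells (0.685% and 0.913%), 0.731% in 48 mKO2low cells (0.642% and 0.880%) and 0.771% in 39 mKO2high cells (0.666% and 0.930%). The quartile ranges of all 4 gates overlap. After each of these cells was thinned to 5000 counts, a median of 20 proteasome genes was counted in an mAG+ cell, 18 in an mKO2neg cell, 18 in an mKO2low cell and 17 in an mKO2high cell. Without thinning, and with the shallower cells included, the medians were 33, 26, 26.5 and 21 genes in the same order.

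**Figure D2:**
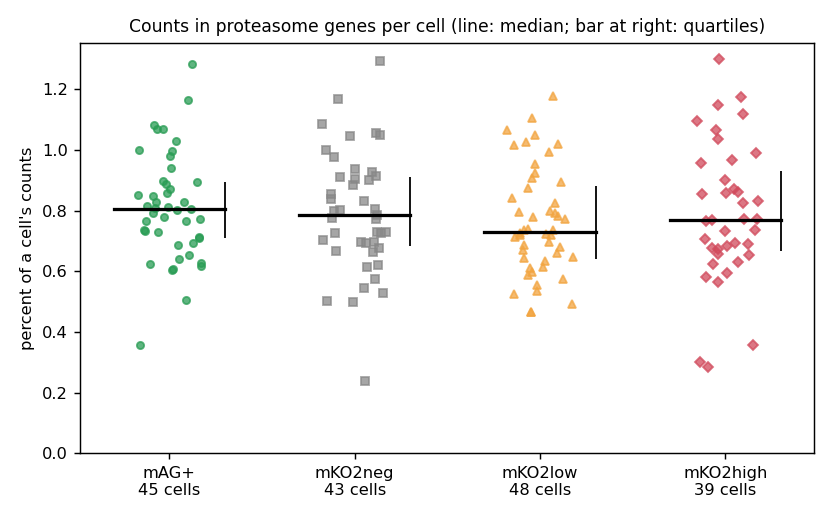
Percent of a cell's counts in the 39 proteasome genes, 1 point per cell with at least 5000 counts, by gate; the line is the median and the bar at its right spans the quartiles. The medians lie between 0.731% in mKO2low and 0.806% in mAG+, and the cells of all gates overlap.

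Within the first library, mAG+ cells (S, G2 and M phase) were set against mKO2neg cells. Of the 38 genes with at least 10 counts over both gates, 3 were at least 1.5-fold higher in mAG+ and 2 at least 1.5-fold lower. Over all 12115 genes with that many counts, 31.2% were that much higher and 24.3% that much lower, 55.5% in all. At 2-fold it was 1 proteasome gene and 35.8% of all genes. Among well-counted genes, with at least 500 counts over both gates, the share was 2 of 29 proteasome genes and 28% of 1588 genes. The median log2 ratio of the family was -0.03, where it was 0.06 over all genes. Psmd13, Psmb9 and Psmc3 were the genes higher in mAG+, and Psmd3 and Psmd9 those lower.

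Within the second library, mKO2low cells were set against mKO2high cells, the lower and the higher level of the G0 and G1 reporter. Here 4 of 38 genes were at least 1.5-fold higher in mKO2low and 2 at least 1.5-fold lower, with a background of 29.4% higher and 25.2% lower, or 54.7% of 10901 genes in all. At 2-fold it was 2 proteasome genes and 34.5% of all genes. Of genes with at least 500 counts over both gates, 1 of 17 proteasome genes and 16.6% of 802 genes were past 1.5-fold. The median log2 ratio of the family was 0.01, where it was 0.05 over all genes. Higher in mKO2low were Psmd7, Psmd9, Psma8 and Psmb7, and lower were Psmc6 and Psmd10.

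Across the libraries, gate and library cannot be told apart. For mKO2neg against mKO2low, 4 of 38 genes were past 1.5-fold in either direction, with 51.5% of 11375 genes as the background, and 1 was past 2-fold, with a background of 32%. For mAG+ against mKO2high the count was 8 of 38 and the background 62.6% of 11849 genes, and at 2-fold 2 of 38 and 43.3%. Of genes with at least 500 counts over both gates, 1 of 23 proteasome genes was past 1.5-fold for mKO2neg against mKO2low, with a background of 13.2%, and 4 of 26 for mAG+ against mKO2high, with 38.8%. The median log2 ratios of the family were 0.09 and 0.04 in these 2 comparisons.

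**Figure D3:**
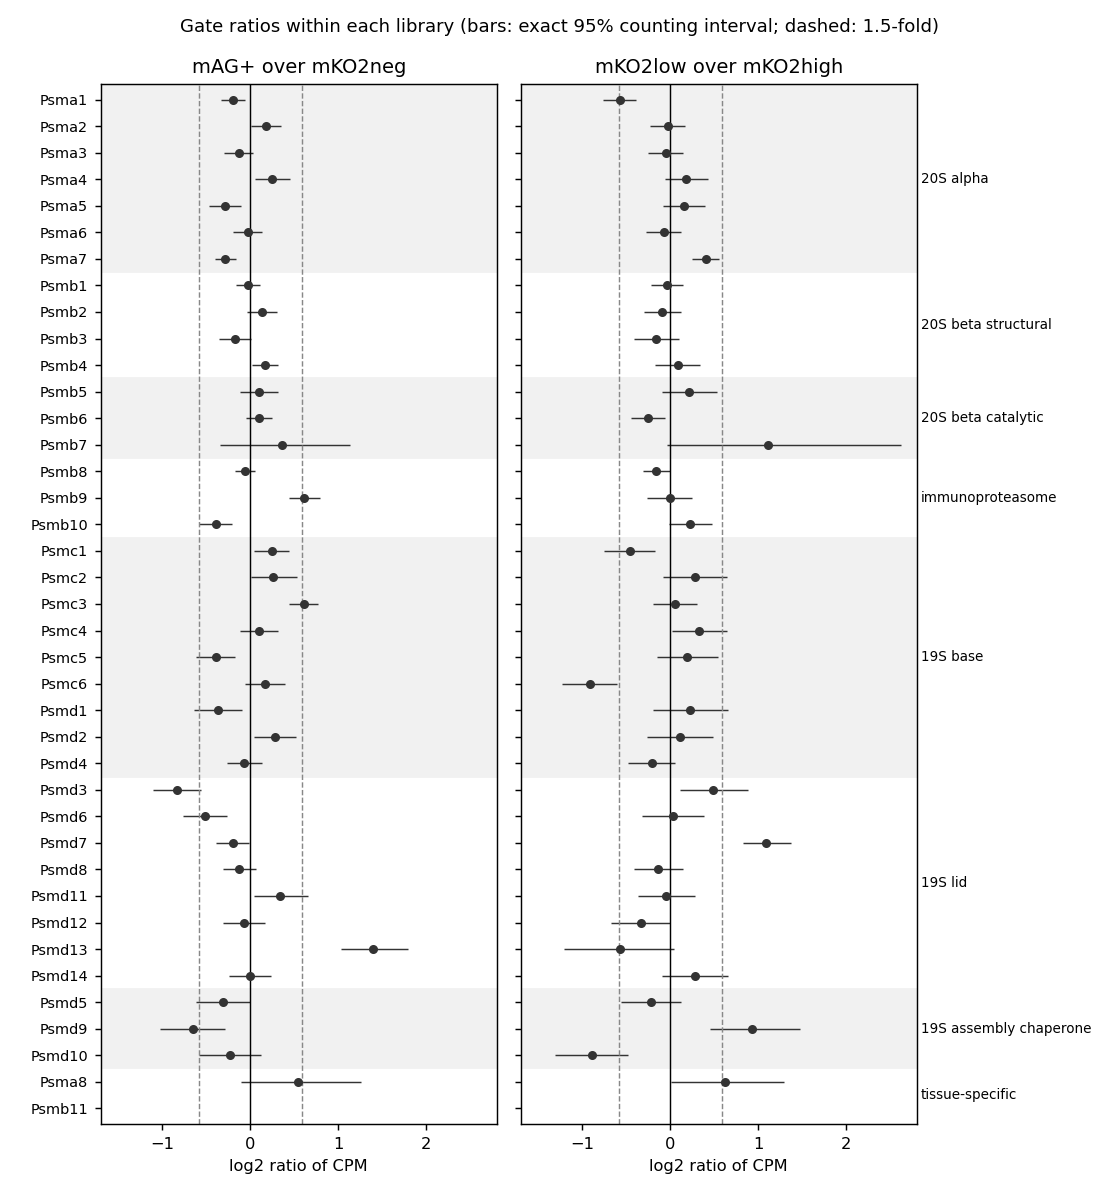
Log2 ratio of CPM for each proteasome gene in mAG+ over mKO2neg (left) and mKO2low over mKO2high (right), with exact 95% counting intervals; dashed lines mark 1.5-fold and Psmb11 has no value. Most points lie between the dashed lines, while Psmd13 reaches 1.39 at left and Psmd7 1.09 at right.

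The alpha rings, which gate the entry to the core, differed little within the first library: none of the 7 genes was past 1.5-fold and their log2 ratios for mAG+ against mKO2neg ran from -0.29 to 0.25. Psma7 had 529 CPM in mAG+ against 644 in mKO2neg, and 680 in mKO2low against 515 in mKO2high. It was highest in the middle gates, with log2 ratios of -0.28 (-0.40 to -0.17) for mAG+ against mKO2neg and 0.40 (0.25 to 0.56) for mKO2low against mKO2high. The first of these was 0.0049 when every cell had equal weight, while the second lay between 0.38 and 0.57 under all alternatives that keep the row. Psma1 had 414 CPM in mAG+ against 475 in mKO2neg, and 319 in mKO2low against 476 in mKO2high. It was low in mKO2low, with a log2 ratio against mKO2high of -0.58 (-0.76 to -0.39), just inside 1.5-fold. The other 5 alpha genes had highest-to-lowest gate ratios of 1.22 (Psma5) to 1.31 (Psma3).

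Among the non-catalytic beta genes, Psmb1 was the steadiest proteasome gene, with 409 CPM in mAG+ against 417 in mKO2neg, and 419 in mKO2low against 429 in mKO2high. Its highest gate was 1.05-fold its lowest. Psmb4 was instead higher in both gates of the first library, with 398 CPM in mAG+ against 353 in mKO2neg, and 217 in mKO2low against 204 in mKO2high. For mKO2neg against mKO2low its log2 ratio was 0.70 (0.51 to 0.90), and within the libraries it was 0.17 (0.02 to 0.32) for mAG+ against mKO2neg and 0.08 (-0.17 to 0.34) for mKO2low against mKO2high. The value for mAG+ against mKO2neg was 0.44 with equal weight for each cell and 0.74, past 1.5-fold, after thinning. It was 0.39 without the gene's largest count in each gate, where the gate totals were kept. Psmb2 and Psmb3 varied 1.21-fold and 1.29-fold over the gates.

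The 3 constitutive catalytic genes showed no difference past 1.5-fold within the first library. Psmb5, the chymotrypsin-like subunit, had 181 CPM in mAG+ against 169 in mKO2neg, and 156 in mKO2low against 134 in mKO2high. Its log2 ratio for mAG+ against mKO2neg was 0.09 (-0.12 to 0.31), but 0.46 with equal weight for each cell and 1.11 after thinning. In mKO2neg 1 cell held 36% of the gate's Psmb5 counts. Psmb6, the caspase-like subunit, had 374 CPM in mAG+ against 350 in mKO2neg, and 348 in mKO2low against 414 in mKO2high, a 1.19-fold range over the gates. Psmb7, the trypsin-like subunit, was thinly counted, with 54 counts in mAG+ against 24 in mKO2neg, and 29 in mKO2low against 7 in mKO2high, and its log2 ratio of 1.11 for mKO2low against mKO2high had an interval of -0.04 to 2.62. Of the last 500 exonic bases of Psmb7, 81% also lie in exons of Nek6 on the other strand, and the strand setting of the counting is not given in the sources used here.

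The immunoproteasome genes were present in every gate, at a nearly level sum, and single genes among them differed. Their summed level was 1131 CPM in mAG+ against 1106 in mKO2neg, and 1036 in mKO2low against 1063 in mKO2high. Psmb8, which replaces Psmb5, had 592 CPM in mAG+ against 619 in mKO2neg, and 562 in mKO2low against 627 in mKO2high. These levels lie within 1.12-fold of each other, and Psmb8 was the steadiest proteasome gene after Psmb1.

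Psmb9, which replaces Psmb6, was the immunoproteasome gene that stood apart: it had 334 CPM in mAG+ against 218 in mKO2neg, and 212 in mKO2low against 213 in mKO2high. The 3 mKO2 gates were level with each other and mAG+ was above them, with a log2 ratio of 0.61 (0.43 to 0.79) against mKO2neg and 0.65 (0.43 to 0.88) against mKO2high. Within the library the ratio lay between 0.58 and 0.81 under every alternative that keeps the row. It was 0.81 without the gene's largest count in each gate, where the gate totals were kept. Psmb10, which replaces Psmb7, had 204 CPM in mAG+ against 269 in mKO2neg, and 261 in mKO2low against 223 in mKO2high. It went the other way in mAG+ against mKO2neg, with a log2 ratio of -0.39 (-0.58 to -0.21). That value was -0.09 without the gene's largest count in each gate, where the gate totals were kept. The top cell held 11.1% of the gene's counts in mAG+ and 28% in mKO2neg.

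Summed counts of the immunoproteasome genes were 1.97 times those of Psmb5, Psmb6 and Psmb7 in mAG+ against 2.07 times in mKO2neg, and 1.99 times in mKO2low against 1.91 times in mKO2high. These ratios mix genes of different length and serve only to compare gates. The log2 ratio of the ratios was -0.07 (-0.22 to 0.07) for mAG+ against mKO2neg and 0.06 (-0.14 to 0.25) for mKO2low against mKO2high. Both intervals include 0. They hold counting error only, so they set no bound on the difference between gates. After thinning, the value for mAG+ against mKO2neg was -0.53, with Psmb5 itself at 1.11.

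**Figure D4:**
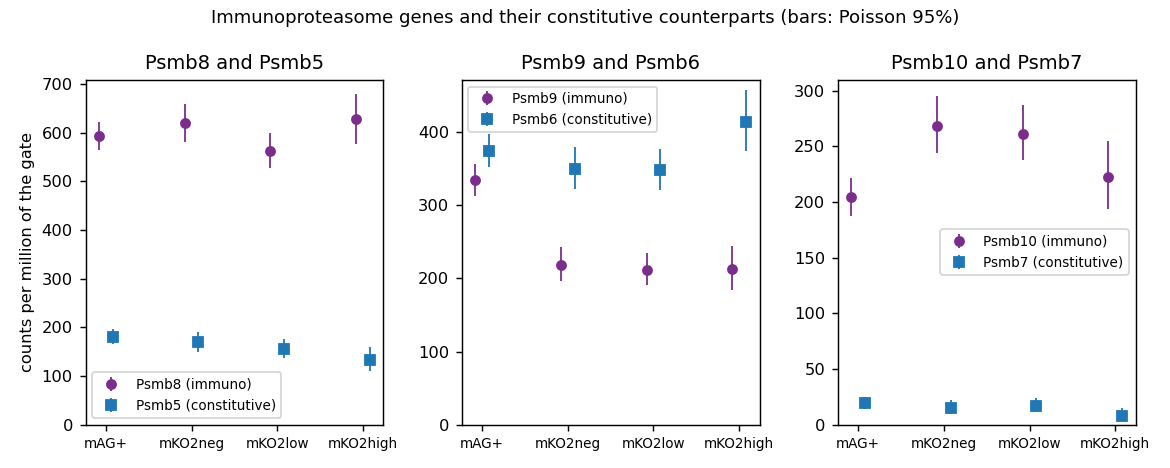
Level in CPM of each immunoproteasome gene (circles) and of the constitutive gene it replaces (squares) in the 4 gates, with exact Poisson 95% intervals; the 2 genes of a panel are not per length and are not to be compared with each other. Psmb9 at 334 CPM in mAG+ lies above its 212 to 218 CPM in the other gates, while Psmb8 stays between 562 and 627 CPM.

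Markers of mature cells that carry much immunoproteasome differed between gates. The 5 B cell markers summed to 260 CPM in mAG+ (5 of 5 counted) against 92.0 in mKO2neg (4 of 5), and 100 in mKO2low (3 of 5) against 83.5 in mKO2high (3 of 5). Cd79b made up most of the sums outside mAG+ and did not stand out there, with 78.5 CPM in mAG+ against 70.9 in mKO2neg, and 98.0 in mKO2low against 71.7 in mKO2high. The defining marker Cd79a was at 24.0 CPM in mAG+ and at 0 in the other gates, and 1 of the 3 mAG+ cells that counted it held nearly all of its counts. Without the 3 mAG+ cells with a count of Cd79a, Psmb9 had 337 CPM in mAG+ against 218 in mKO2neg, a log2 ratio of 0.63 (0.45 to 0.81). Other B cell markers were counted in more mAG+ cells, Ighm in 12 of 48 and Cd79b in 28. The part of B cells in the level of Psmb9 was not tested.

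The 6 markers of dendritic cells and MHC class II summed to 72.4 CPM in mAG+ against 140 in mKO2neg, and 217 in mKO2low against 961 in mKO2high, with 4 or 5 of 6 counted. In mKO2high the MHC class II genes Cd74 at 611 CPM, H2-Aa at 234 and H2-Eb1 at 112 made up nearly all of the sum, and 1 cell held 67.4% of the Cd74 counts. H2-Ab1, also of MHC class II, was counted in mKO2neg alone, at 3.73 CPM. Irf8, a transcription factor of dendritic cells, went another way, with 8.24 CPM in mAG+ against 31.7 in mKO2neg, and 4.70 in mKO2low against 3.21 in mKO2high, and Siglech was at 0 in every gate. The 6 markers of neutrophils and monocytes summed to 360 CPM in mAG+ against 398 in mKO2neg, and 487 in mKO2low against 420 in mKO2high. Among them S100a8, at 117 in mAG+ against 58.4 in mKO2neg, and S100a9, at 69.9 against 31.7, were higher in mAG+. Prtn3 went the other way, at 168 against 305. The part of these cells in the levels of the immunoproteasome genes was not tested.

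Psmb9 has a close neighbour in the genome. It lies on chromosome 17 at 34181987 to 34187764 (GRCm38, minus strand) in the MHC region, head to head with Tap1, which pumps peptides into the endoplasmic reticulum for loading on MHC class I. In RefSeq on GRCm38.p6 their starts are 225 bases apart. Tap1 had 173 CPM in mAG+ against 131 in mKO2neg, and 133 in mKO2low against 113 in mKO2high. It was highest in mAG+ as well, with a log2 ratio of 0.40 (0.17 to 0.64) against mKO2neg. Directly before the start of Psmb9 this stretch holds a CCAAT box, read on the other strand and shown in capitals in the sequence that follows.

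Psmb9, chr17:34187331-34187348, minus strand: gcagccgctgATTGGaaa

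In the base of the 19S cap, mAG+ cells had more counts relative to the core than the other gates, and within the library most of that was Psmc3. Summed counts of the 9 base genes were 0.408 of the summed 20S core counts in mAG+ against 0.358 in mKO2neg, and 0.300 in mKO2low against 0.313 in mKO2high. The log2 ratio of the ratios was 0.19 (0.11 to 0.27) for mAG+ against mKO2neg and 0.24 (0.15 to 0.33) when the top cell of each gene was left out. Without Psmc3 the ratio was 0.314 in mAG+ against 0.298 in mKO2neg, and the log2 ratio of the ratios 0.08 (-0.01 to 0.17), an interval that includes 0, while without any other 1 of the base genes it stayed between 0.18 and 0.25. For mKO2low against mKO2high it was -0.06 (-0.18 to 0.06) with all 9 genes, and -0.14 (-0.27 to -0.02) when the top cell of each gene was left out. Across the libraries, for mKO2neg against mKO2low, it was 0.25 (0.16 to 0.35) with all cells. By median, the 9 base genes had a log2 ratio of 0.17 for mAG+ against mKO2neg, and 6 of 9 were above 0, where 52.8% of all genes were.

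Psmc3, an ATPase of the base ring, had the highest log2 ratio of the base genes in mAG+ against mKO2neg. Its level was 397 CPM in mAG+ against 260 in mKO2neg, and 232 in mKO2low against 224 in mKO2high, so mAG+ stood above 3 gates that were closer together. The log2 ratio was 0.61 (0.44 to 0.77) for mAG+ against mKO2neg and 0.05 (-0.19 to 0.30) for mKO2low against mKO2high, and the first lay between 0.52 and 0.68 under every alternative that keeps the row. Psmc6, another ATPase of the ring, had 174 CPM in mAG+ against 155 in mKO2neg, and 102 in mKO2low against 193 in mKO2high. Its low gate was mKO2low, with a log2 ratio against mKO2high of -0.91 (-1.22 to -0.61) and a range of -1.46 to -0.89 over the alternatives. Psmd4, the ubiquitin receptor Rpn10, was level, with 194 CPM in mAG+ against 203 in mKO2neg, and 177 in mKO2low against 204 in mKO2high. The remaining 6 base genes were within 1.5-fold in both comparisons within a library.

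Psmd13, a gene of the lid, had the widest range of the family. For mAG+ against mKO2neg 2 of the 8 lid genes had log2 ratios above 0, where 52.8% of all genes did. For mKO2low against mKO2high it was 4 of 8 lid genes and 52.2% of all genes. Summed lid counts were 0.265 of the core's in mAG+ against 0.275 in mKO2neg, and 0.263 in mKO2low against 0.222 in mKO2high. The log2 ratio of the ratios was -0.05 (-0.15 to 0.04) for mAG+ against mKO2neg and 0.25 (0.12 to 0.38) for mKO2low against mKO2high. Without Psmd13 the value for mAG+ against mKO2neg was -0.16 (-0.25 to -0.06), an interval that leaves out 0. Without any other 1 of the lid genes it stayed between -0.09 and 0.02. Psmd7, the partner of the lid's deubiquitinase, carried the value for mKO2low against mKO2high: without it the lid was at 0.187 of the core in mKO2low against 0.186 in mKO2high, a log2 ratio of 0.0022 (-0.14 to 0.15). The level of Psmd7 was 211 CPM in mAG+ against 242 in mKO2neg, and 321 in mKO2low against 150 in mKO2high. Its log2 ratio for mKO2low against mKO2high was 1.09 (0.83 to 1.38), and 0.77 to 1.12 over the alternatives. The deubiquitinase itself, Psmd14 (Rpn11), had a log2 ratio of 0.28 (-0.09 to 0.65) in that comparison.

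Psmd13 (Rpn9) had 118 CPM in mAG+ against 44.8 in mKO2neg, and 29.9 in mKO2low against 45.0 in mKO2high, a range of 3.95-fold over the gates. Its log2 ratio for mAG+ against mKO2neg was 1.39 (1.03 to 1.79) in summed counts, 0.55 with equal weight for each cell and 0.08 after thinning, so its size depended on the weight given to deep cells. Psmd3 (Rpn3) had 79.2 CPM in mAG+ against 141 in mKO2neg, and 117 in mKO2low against 83.5 in mKO2high. It was lower in mAG+ than in mKO2neg, with a log2 ratio of -0.83 (-1.11 to -0.56), of -0.62 with equal weight and of -0.31 after thinning. Psmd6 (Rpn7) had 104 CPM in mAG+ against 149 in mKO2neg, and 114 in mKO2low against 112 in mKO2high. Its log2 ratio for mAG+ against mKO2neg was -0.52 (-0.77 to -0.26), -0.12 with equal weight for each cell and 0.16 after thinning. Psmd8 (Rpn12) had 219 CPM in mAG+ against 239 in mKO2neg, and 169 in mKO2low against 186 in mKO2high, a step between the libraries and little within them. Psmd11 and Psmd12 stayed within 1.5-fold in both comparisons within a library.

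**Figure D5:**
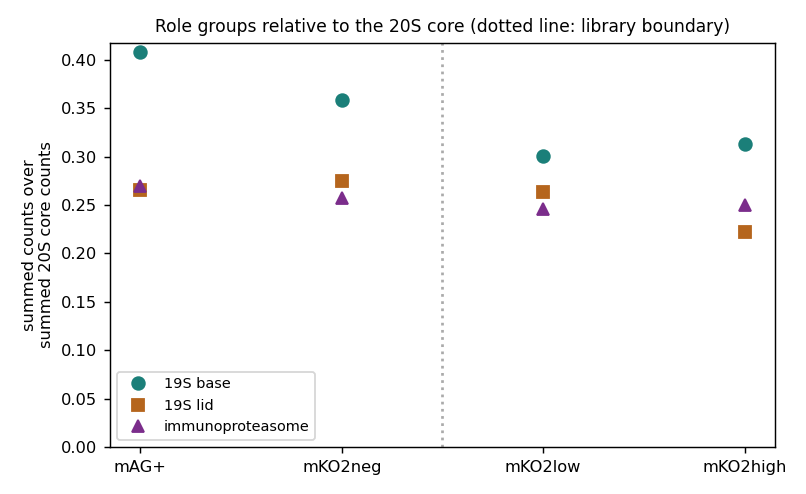
Summed counts of the 19S base (circles), the 19S lid (squares) and the immunoproteasome genes (triangles) divided by summed counts of the 14 constitutive 20S core genes, by gate; the dotted line separates the 2 libraries. The base is at 0.408 in mAG+ (0.314 without Psmc3) and at 0.300 to 0.358 in the other gates, and the immunoproteasome stays between 0.246 and 0.270.

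Psmd5, Psmd9 and Psmd10 (gankyrin) are chaperones that help to build the base and leave before the proteasome is complete. Together they had 184 CPM in mAG+ against 240 in mKO2neg, and 256 in mKO2low against 282 in mKO2high. Of the 3 only Psmd5 was lowest in mAG+, while Psmd10 was lowest in mKO2low and Psmd9 in mKO2high. Psmd5 had 75.6 CPM in mAG+ against 93.9 in mKO2neg, and 109 in mKO2low against 127 in mKO2high. For mAG+ against mKO2neg its log2 ratio was -0.31, but -0.04 with equal weight for each cell and -0.99 after thinning. For mAG+ against mKO2high, across the libraries, it was -0.75 (-1.08 to -0.42). Psmd10 had 60.9 CPM in mAG+ against 71.5 in mKO2neg, and 58.1 in mKO2low against 108 in mKO2high. It was highest in mKO2high, with a log2 ratio of -0.89 (-1.31 to -0.48) for mKO2low against mKO2high, and -0.92 to -0.52 over the alternatives. For mAG+ against mKO2neg its log2 ratio was -0.23 (-0.58 to 0.12), -0.14 with equal weight for each cell and 0.58 after thinning. Psmd9 had 47.3 CPM in mAG+ against 74.6 in mKO2neg, and 88.7 in mKO2low against 46.0 in mKO2high. Its log2 ratios were -0.65 (-1.03 to -0.29) for mAG+ against mKO2neg and 0.93 (0.45 to 1.47) for mKO2low against mKO2high. With equal weight for each cell they kept their signs, at -0.30 and 0.26, and after thinning they were 0.30 and -0.43.

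The tissue-specific genes were thinly counted or not counted. Psmb11, the beta subunit of the thymus proteasome, had no count in any gate, which allows up to 1.07 CPM in mAG+ and 3.21 in mKO2high. Psma8, the alpha subunit of the testis proteasome, had 24.7 CPM in mAG+ against 16.8 in mKO2neg, and 48.1 in mKO2low against 31.0 in mKO2high. Its counts were 69 in mAG+ and 27 in mKO2neg, and 82 in mKO2low and 29 in mKO2high. In mKO2low 1 cell held 36.6% of the gate's Psma8 counts.

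Members also share short sequences before their starts. RefSeq's promoter table on GRCm38.p6 held 32 of the 39 genes, and 5 motifs were searched on both strands of the 250 bases before each start. The letters CCGGAAG, the core that ETS factors bind, lay there in 9 of the 32 proteasome genes and in 7.83% of 27025 genes. They were in 5 of 8 base genes, 3 of 6 lid genes and 1 of 11 constitutive core genes. The base and lid genes with the motif are shown, because they include members that went different ways (Psmc6 low in mKO2low, Psmc1 and Psmd2 highest in mAG+, Psmd4 level). Capitals mark the motif, which reads CTTCCGG on the other strand, and each sequence runs toward a RefSeq start of its gene. For Psmc2 the start in question lies inside the gene, which begins at 21785283 in GENCODE. Psmc2 also holds the motif before that beginning, at chr5:21785181-21785207, in a stretch that is not shown.
Psmc1, chr12:100110164-100110190: ggtggatgcaCTTCCGGcggtggcgat
Psmc2, chr5:21786713-21786739: cgcggagctaCTTCCGGtggggaagag
Psmc6, chr14:45329714-45329740: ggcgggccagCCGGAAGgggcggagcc
Psmd2, chr16:20651616-20651642: ccgcagggcgCTTCCGGtctggaggac
Psmd4, chr3:95042723-95042749, minus strand: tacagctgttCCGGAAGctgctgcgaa
Psmd6, chr14:14120974-14121000, minus strand: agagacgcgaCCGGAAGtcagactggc
Psmd11, chr11:80428594-80428614: gagggcgggtCTTCCGGgtgt
Psmd12, chr11:107479501-107479527: gagcgggcgaCTTCCGGtgcgagtgac

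The antioxidant response element is the site through which Nfe2l1 and Nfe2l2, the stress regulators of proteasome genes, act. Its core TGACNNNGC lay before 5 of the 32 genes (Psmb5, Psmb6, Psmc6, Psmd9 and Psmd12) and before 11.5% of all genes, a share near the background. The sites before both catalytic genes are shown, as these subunits cut the substrate. Of the other motifs, CCAAT lay before 13 of 32 and 37.5% of all genes. The core of the interferon-stimulated response element lay before 3 (Psmb3, Psmd4 and Psmd9, none of them an immunoproteasome gene) and before 3.46% of all genes. TTCNNNGAA, which STAT factors bind, lay before 1 (Psmb8) and 8.13%.
Psmb5, chr14:54618024-54618052, minus strand: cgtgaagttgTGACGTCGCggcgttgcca
Psmb6, chr11:70525338-70525356: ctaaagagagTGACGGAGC

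Of a list of 42 other genes of the pathway, 41 could be read. For mAG+ against mKO2neg, 6 were at least 1.5-fold higher and 1 lower, and for mKO2low against mKO2high 9 of 40 measured genes were higher and 3 lower, with the backgrounds of 55.5% and 54.7% given above for either direction. Psme3, the nuclear activator that caps the core without ubiquitin, had 47.6 CPM in mAG+ against 25.5 in mKO2neg, and 76.9 in mKO2low against 27.8 in mKO2high. Its log2 ratios were 0.89 (0.39 to 1.44) for mAG+ against mKO2neg and 1.44 (0.85 to 2.13) for mKO2low against mKO2high, so it was high in 1 gate of each library. Psme4, another nuclear activator, had 35.5 CPM in mAG+ and 14.9 in mKO2neg, a log2 ratio of 1.22 (0.59 to 1.96).

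For mAG+ against mKO2neg the other genes higher were Ubqln2, a shuttle for ubiquitin-tagged proteins, at 1.91 (1.20 to 2.82), Ngly1, which removes glycans from Nfe2l1, at 0.83 (0.34 to 1.37), and the MHC class I regulators Irf1 at 0.62 (0.28 to 0.98) and Nlrc5 at 0.79 (0.21 to 1.44). Tap2, the partner of Tap1, was lower, with 42.3 CPM in mAG+ and 70.9 in mKO2neg and a log2 ratio of -0.74 (-1.13 to -0.36). Genes of antigen presentation thus did not share a direction: of 7 on the list 4 had log2 ratios above 0 and 3 below.

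For mKO2low against mKO2high Rad23b, a shuttle for ubiquitin-tagged proteins, was higher, with a log2 ratio of 0.79 (0.24 to 1.39). The regulators Nfe2l1 and Nfe2l2 were also higher, at 0.67 (0.12 to 1.27) and 0.76 (0.36 to 1.19), as was Ddi2, the protease that releases Nfe2l1, at 1.19 (0.13 to 2.58). The median log2 ratio of the subunits was 0.01 in the same comparison. Lower in mKO2low were Tap2 at -0.69 (-1.13 to -0.27) and Psmg1, a chaperone of core assembly, at -0.60 (-0.98 to -0.23).

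The level of some subunits could include reads of other loci. By the annotation, 9 of the 39 genes either share at least 97% identity over at least 100 bases of the last 500 with a transcript of another locus (Psma3, Psma5, Psmb3, Psmb5, Psmc1, Psmd2 and Psmd11) or have at least 25% of those bases in exons of another gene (Psmb7 and Psmd1). Psmb8, Psmb9, Psmb10 and Psmc3 are not among them, although a longer isoform of Psmc3 reaches into Slc39a13 on the opposite strand.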

How the data were processed

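Whole-number counts per gene and cell were deposited for 192 single cells. The deposited counts were raw. Per the labels' protocols, a modified Smart-seq2 method was used with enrichment of 3′ ends. Per the submitters' processing notes, HISAT2, HTSeq 0.11.3, Seurat and the build mm10 were used, in roles that are not stated. Neither molecular identifiers, nor the strand setting, nor the annotation release is given in the sources used here. Intervals therefore treat reads as independent molecules, which they may not be, and hold counting error alone. The deposited cell table gave each cell's gate, and doublets were not called.

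Of 53378 rows, 53273 had an ID in GENCODE M21 (GRCm38), and 105 rows with 0.222% of the counts did not. Each gene was read from the row of the preceding gene. Counts were summed per gate and scaled to CPM. Log2 ratios used a prior count of 1, and genes needed 10 counts over both gates. Intervals were exact: conditional binomial for ratios, Poisson for levels and conditional odds ratios for ratios of ratios. "1.5-fold" is a size rule in place of a test, since each gate is 1 sample.

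The alternatives were TMM factors (edgeR 4.0.16), DESeq2 1.42.0 size factors, equal weight per cell, thinning to 5000 counts, a cell filter (at least 1000 genes and under 20% mitochondrial counts), other minimum counts, a prior count of 5, 2-fold, leaving out the deepest cell or each gene's top cell, the deposited label, and, chosen after seeing the data, a minimum of 500 counts, leaving out genes with overlapping 3′ ends or copies, leaving out 1 base or lid gene at a time and leaving out cells with a count of Cd79a. To leave out a gene's top cell, its largest count in each gate was taken out and the gate total was kept. A ratio of gates then shifts toward the gate whose top cell held the smaller share of the gene. Thinning was a single random draw that leaves few counts of each gene, so values after thinning carry more counting error and are given without intervals. Near-identical copies were found with BLAST+ 2.17.0. Python 3.11.15, pandas 2.3.3 and SciPy 1.17.1 were used. Intervals were checked on simulated Poisson counts, the spread they assume, so the check does not cover the uneven cells of these data.

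The members, role groups, pathway and marker lists were chosen with earlier results of these data known. Levels in all gates are given for Psmb5 to Psmb10, for the 3 highest and 3 lowest log2 ratios within each library among members with at least 50 counts, and for up to 2 members per role group with the most counts. Pathway genes are named past 1.5-fold with an interval on 1 side of 0, up to 6 per direction, and 1 gene that meets this rule is not reported here. Tap1 and Psmd14 were named after their values were seen.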

Additional observations from a re-analysis of the deposited data

How the results depend on the processing

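Each result of a group of genes (medians, summed ratios, counts past 1.5-fold and shares per cell) was recomputed under the alternatives, which gave 286 values. Of these, 252 stayed within the band set for them, 34 moved and none reversed. The band was the counting interval for summed ratios and 1.5 times for a count. For medians it was the medians of the members' own limits, and for shares the quartiles over cells. These last 2 bands are as broad as a single gene's interval or the spread of cells, so staying within them is a weak check. All 52 values of the family's median and all 8 shares stayed within them. A value of a group or of a single gene could be called reversed only where its reported interval left out 0. Most group intervals include 0, so a change of sign there was not called reversed. The immunoproteasome sum for mKO2neg against mKO2low, for example, went from 0.095 to -0.070 without each gene's largest count in each gate. For single genes 878 values were computed, and 95 moved and 11 reversed. TMM, DESeq2 size factors, the cell filter, the prior count of 5 and minimum counts of 1 or 100 moved none of the group results that were recomputed.

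With equal weight for each cell, 1 gene was past 1.5-fold for mAG+ against mKO2neg. The immunoproteasome sum for mAG+ against mKO2high was then at a log2 ratio of -0.023 and its ratio to the catalytic genes at -0.28. Thinning put the ratio of immunoproteasome to catalytic genes at -0.53 for mAG+ against mKO2neg. For mKO2neg against mKO2low it gave 0.39, and 9 genes were past 1.5-fold. Leaving out each gate's deepest cell put the immunoproteasome sum at 0.14 for mAG+ against mKO2neg. It was -0.020 for mKO2neg against mKO2low, and its ratio to the catalytic genes at -0.19 for mAG+ against mKO2high. Without each gene's largest count in each gate, and with the gate totals kept, the immunoproteasome sum was at 0.22 for mAG+ against mKO2neg. For mKO2neg against mKO2low it was -0.070, and 2 genes were past 1.5-fold. The 20S median was 0.16 for mKO2low against mKO2high. At 2-fold, the counts were 1 for mAG+ against mKO2neg, 2 for mKO2low against mKO2high, 1 for mKO2neg against mKO2low and 2 for mAG+ against mKO2high. With at least 500 counts, they were 2, 1, 1 and 4 in that order, and the 19S median was 0.57 for mKO2low against mKO2high, as fewer genes are left. Without genes with overlapping ends or copies, the ratio of immunoproteasome to catalytic genes was at 0.24 for mAG+ against mKO2high. With 1 gene left out at a time, chosen after seeing the data, the base over core (mAG+ against mKO2neg) and lid over core (mKO2low against mKO2high) gave 17 values, of which 2 moved, to 0.076 without Psmc3 and 0.0022 without Psmd7. The lid over core for mAG+ against mKO2neg is not in this count, and was -0.16 without Psmd13.

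Under the deposited labels, which hold other genes' counts if the labels are displaced, the 20S median was -0.70 for mAG+ against mKO2neg, 1.28 for mKO2low against mKO2high and -0.27 for mKO2neg against mKO2low. The 19S median was -0.60 for mAG+ against mKO2high. The immunoproteasome sum was at 0.42 for mAG+ against mKO2neg, 0.22 for mKO2low against mKO2high, -0.017 for mKO2neg against mKO2low and 0.63 for mAG+ against mKO2high. Its ratio to the catalytic genes was at -1.49 for mKO2low against mKO2high and 2.48 for mKO2neg against mKO2low, where 8 genes were past 1.5-fold.

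Reversed single genes for mAG+ against mKO2neg were Psma7 at 0.0049 with equal weight, Psma5 at 0.11, Psmd9 at 0.30, Psma4 at -0.092, Psmc5 at 0.34 and Psmd6 at 0.16 after thinning, and Psmc3 at -1.91 and Psmc1 at -0.47 under the deposited labels. For mKO2low against mKO2high they were Psmd9 at -0.43 and Psmd3 at -0.034 after thinning and Psmc1 at 0.094 under the deposited label. The cause of these shifts was not tested. No paired analysis was possible because each gate is 1 sample. Depth limits most the mKO2high values and the thinly counted Psmb7 and Psma8.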
